A study of Homo sapiens with 4 samples.

Results

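The cytosolic ribosomal protein genes were chosen by symbol alone: every line of the deposited tables whose symbol is RPL or RPS with a number and, where present, a final A, L or X, together with RPLP0, RPLP1, RPLP2, RPSA and RPL36AL. This gave 83 of the 23605 gene symbols, 50 of the large and 33 of the small ribosomal subunit. The rule itself uses no measured value, but it was set with earlier results of these data known. RNA was sequenced from LCC9 cells, a tamoxifen-resistant line of breast luminal origin that the labels call positive for wild-type estrogen receptor alpha. Both groups were kept in phenol red-free medium with 5% charcoal-stripped serum, which is poor in estrogen, and were treated for 24 h. The control group received the vehicle DMSO (2 libraries). The other group received the compound A7, called a BRCA1 mimetic in the labels (2 libraries). No dose of A7 is given in the sources used here, and sample and series titles attach different catalogue numbers to it, so the code name is used. Nothing in the labels ties the 2 libraries of a group to independent cultures. The p-values therefore rest on a spread that may be only technical.

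Each ribosome joins a small subunit, which reads the messenger RNA, to a large subunit, which forms the peptide bonds. A ribosome holds 1 copy of nearly every ribosomal protein, and cells make these proteins in matched amounts. Most of their messenger RNAs begin with a C followed by a run of C and T (U in the RNA), the 5′ terminal oligopyrimidine or TOP tract, through which growth signals control their translation. In proliferating cancer cells they are among the most abundant messenger RNAs, and their many processed pseudogenes can take up reads of the parent gene.

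RefSeq promoter entries (build GRCh38.p14) were found for 65 of the 83 members. The 40-base stretches below span 20 bases before and 20 bases from the annotated start of transcription, so their second part is the beginning of the first exon, in the 5′ untranslated region. They are shown for some of the most abundant members, some members at both ends of the differences between A7 and vehicle, and some paralogs that differ in level. Capitals mark the unbroken run of C and T that covers the first transcribed base.
RPL41: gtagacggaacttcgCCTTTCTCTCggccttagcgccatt
RPLP1: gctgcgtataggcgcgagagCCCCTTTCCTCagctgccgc
RPS7: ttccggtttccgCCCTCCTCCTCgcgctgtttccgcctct
RPS16: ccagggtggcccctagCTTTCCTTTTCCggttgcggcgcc
RPL11: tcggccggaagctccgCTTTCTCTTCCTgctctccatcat
RPL36A: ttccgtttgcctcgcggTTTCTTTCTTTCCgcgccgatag
RPL36AL: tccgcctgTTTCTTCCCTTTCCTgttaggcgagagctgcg
RPS27: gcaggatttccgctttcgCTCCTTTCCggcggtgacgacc
RPS27L: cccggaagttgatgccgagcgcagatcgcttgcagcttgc
RPL10: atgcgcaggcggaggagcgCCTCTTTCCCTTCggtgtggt
RPL10L: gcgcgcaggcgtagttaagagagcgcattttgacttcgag
These stretches lie at chr12:56116613-56116652 (RPL41, plus strand), chr15:69452798-69452837 (RPLP1, plus), chr2:3575240-3575279 (RPS7, plus) and chr19:39435930-39435969 (RPS16, minus). RPL11 lies at chr1:23691786-23691825 (plus), RPL36A at chrX:101390991-101391030 (plus) and RPL36AL at chr14:49620607-49620646 (minus). RPS27 lies at chr1:153990742-153990781 (plus), RPS27L at chr15:63157458-63157497 (minus), RPL10 at chrX:154398357-154398396 (plus) and RPL10L at chr14:46651762-46651801 (minus). RPL11 has 2 listed starts and RPL10 has 3, and the start with the longest run is shown.

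A tract, defined here as a C at the first transcribed base followed by at least 4 further C or T, was present at a listed start of 46 of the 65 members (70.8%). It was present in 28 of 40 large-subunit genes and in 18 of 25 small-subunit genes. The same pattern was found in 11 of 73 non-members of equal abundance (15.1%), in 469 of 6401 other tested genes (7.33%) and in 5.16% of all genes of the promoter table. Among 80 listed starts of members, 36 (45.0%) held the letters CTTTC on the gene's strand within the same 40 bases and 2 (2.50%) held them on the opposite strand. Over all starts of the table these shares were 5.65% and 4.30%, and CTTTC can overlap the tract. RPS27L and RPL10L, the low-level paralogs of RPS27 and RPL10, had no C or T at the first base. A missing tract was not limited to such paralogs. Among members whose stretches are not shown, RPL27 and RPS4X had no C or T there either. The runs of RPS29, the most abundant small-subunit gene, and of RPS15 covered only 2 bases. RPL36AL and RPS7 begin within runs of 15 and 11 bases that end after 3 transcribed bases, so neither run counted as a tract.

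Summed FPKM (fragments per kilobase of transcript and per 1e6 mapped fragments) reached 1324082 and 1473540 with vehicle but 1189056 and 1192830 with A7. Judged from the steps of the lowest values, depth relative to vehicle replicate 1 was 0.98 in vehicle replicate 2, 1.9 in A7 replicate 1 and 1.4 in A7 replicate 2, so A7 replicate 1 was the deepest library. All 8 markers of luminal breast epithelium reached a mean of 1, with summed levels of 914 to 1150 in vehicle and 772 to 1020 in A7. Markers of other cell types were at or near 0, including PTPRC, CD3E, CD14, CDH5, KDR, KRT5 and KRT14, listed at 0 in all 4 libraries. Of 5 fibroblast markers 1 reached a mean of 1. Their summed level was 0.416 to 0.421 with vehicle, 11.0 in A7 replicate 1 and 0.963 in A7 replicate 2. The matrix proteoglycan DCN stood at 8.40 in A7 replicate 1, and at 0 with vehicle. The part of these cells' RNA in the results below was not tested.

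The ribosomal protein genes spanned nearly the whole range of expression in LCC9. Values below are scaled FPKM, which are FPKM divided by a library factor (0.9899 to 1.02). FPKM are per transcript length, but levels compared between genes also depend on how reads shared with near-identical copies were assigned. That assignment is not given in the sources used here. RPL41, which encodes the smallest ribosomal protein, a short basic peptide of the large subunit, was the most abundant gene of all. It stood at 137936 and 151638 in vehicle and at 143463 and 122936 in A7, and took 10.8% of the summed level. The next member, the stalk protein gene RPLP1, was 15th among all genes. Of the 50 most abundant genes 18 were members, and of the 100 most abundant 35. The median member stood at 1585, with quartiles of 699 and 3686. The large subunit spread more widely, around a median of 1297 (quartiles 576 and 4847), than the small subunit, around a median of 1817 (quartiles 851 and 2792). The estimate for very short transcripts such as RPL41 depends on how transcript length was corrected, which is not given in the sources used here. Across the 80 members counted, log2 level and log2 transcript length had a Pearson r of -0.24 (Spearman rho -0.26), given as a description over genes that share their libraries.

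A few members stood far below the others. RPL22 averaged 115 with vehicle, RPL28 94.0, RPL18 74.0, RPL13 53.9 and RPL27A 34.3. RPS21 was listed at 0 in every library, as was RPL3L, a paralog of RPL3 known from muscle. A listed 0 for RPS21, which every cell uses, may be a failed estimate and is not read as absence. A pair of small-subunit lines carried identical values in all 4 libraries and is counted as 1 gene. With RPL3L and RPS21 under the minimum mean FPKM of 1, 81 members were tested, and counts below cover the 80 with values of their own, 49 of the large and 31 of the small subunit.

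**Figure D1:**
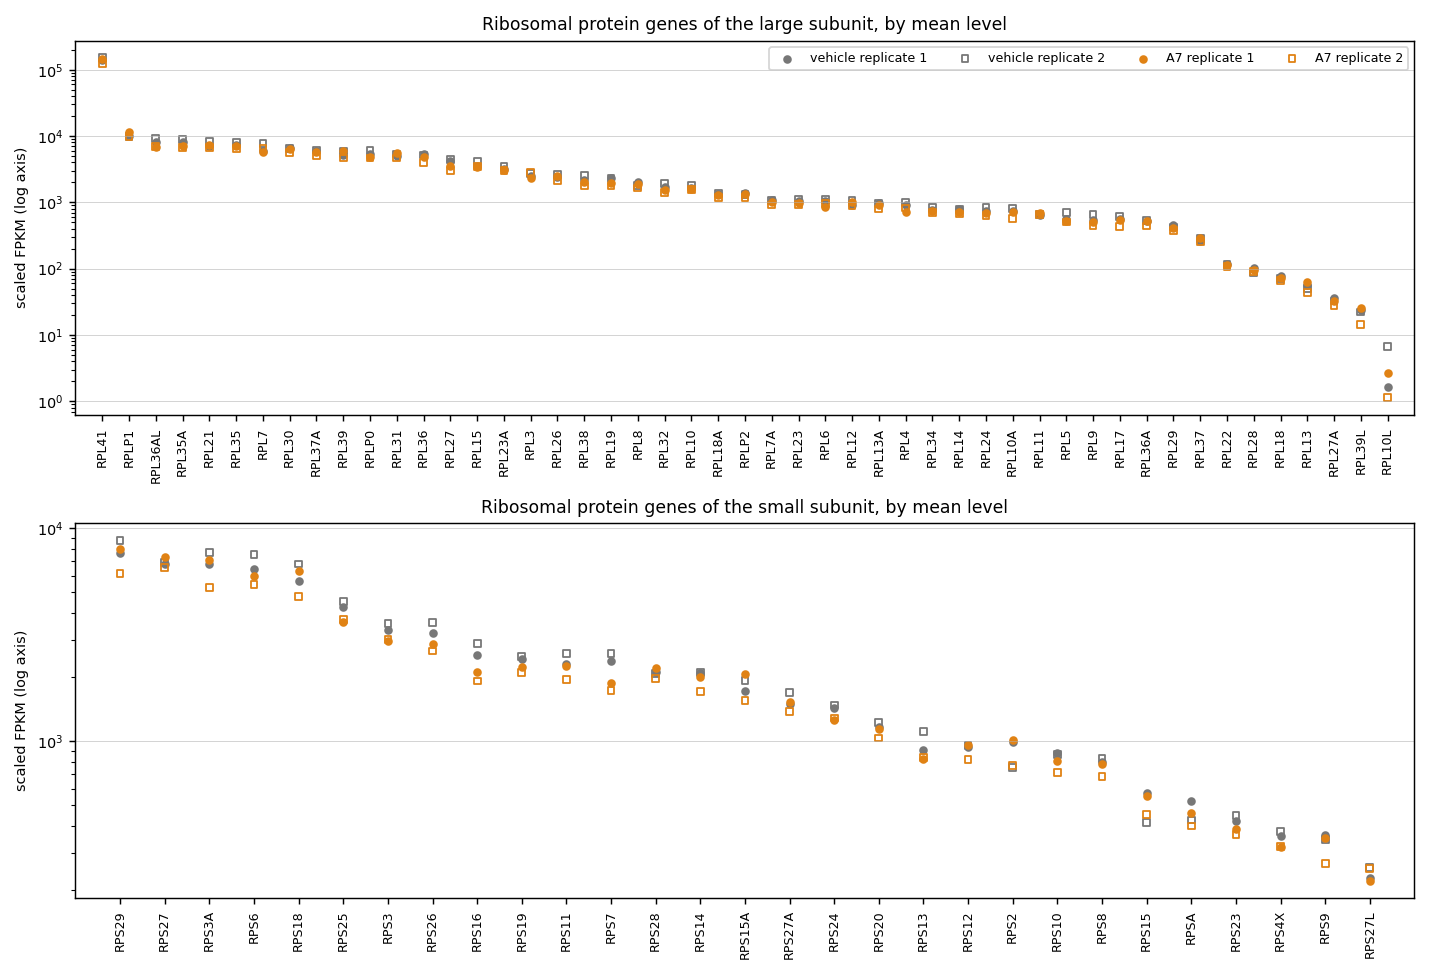
Scaled FPKM (log axis) of the members above 0 that are reported by name, in the large subunit (upper panel) and the small subunit (lower panel), ordered by the mean of the 4 libraries. Grey marks are vehicle and orange marks A7, with filled circles for replicate 1 and open squares for replicate 2. Levels run from RPL41, at a mean of 138993, to RPL10L, at 3.02, and for most members the 4 libraries lie close together.

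The design asks whether A7 altered these messenger RNAs after 24 h. No ribosomal protein gene passed the test. On log2(scaled FPKM + 1), limma with Benjamini-Hochberg adjustment over all 8952 genes tested called 0 of the 80 members at an adjusted p under 0.05, where 2 of all genes (0.0223%) were called, and the smallest adjusted p of a member was 0.806. At an unadjusted limma p under 0.05 there were 8 members with lower and 0 with higher values in A7. Of all genes, 3.55% were lower and 2.21% higher at that p. Among 109 non-members of equal abundance, 10 were lower and 1 higher. Most members nevertheless had slightly lower means with A7. The mean was lower for 74 of 80 members (92.5%), where 50.3% of all genes had a lower mean. Both A7 libraries lay below both vehicle libraries in 48 members (60.0%), against 18.6% of all genes, and above them in 1 member (1.25%), against 18.3%. The median log2 difference of the members was -0.17, with quartiles of -0.26 and -0.11, and that of all genes was -0.0019.

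These signs depend on how the libraries are scaled. Expressed as TPM, all genes together had a median of 0.17, the members one of 0.050, and 27 of the 80 had a lower mean. Relative to that shift the members' median was -0.12. After quantile normalization the median was 0.011 and 36 had a lower mean. No member was called under either. An exact permutation test of 2 against 2 libraries cannot give a p below 0.333.

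The subunits are given side by side, since the difference between them was not tested. The median log2 difference was -0.15 in the large subunit (quartiles -0.27 and -0.12) and -0.20 in the small subunit (quartiles -0.23 and -0.12), both negative as scaled FPKM and both positive as TPM (0.074 and 0.027) and after quantile normalization (0.017 and 0.0092). Lower means were found in 46 of 49 large-subunit and in 28 of 31 small-subunit genes (93.9% and 90.3%), against 50.3% of all genes. Groups lay lower in A7 without overlap in 30 and 18 genes (61.2% and 58.1%), against 18.6% of all genes. In non-members of equal abundance these shares were 88.1% and 51.4%. The difference between the medians, 0.047, took either sign when single libraries were left out (-0.025 without A7 replicate 2, 0.0080 to 0.020 without each of the others).

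**Figure D2:**
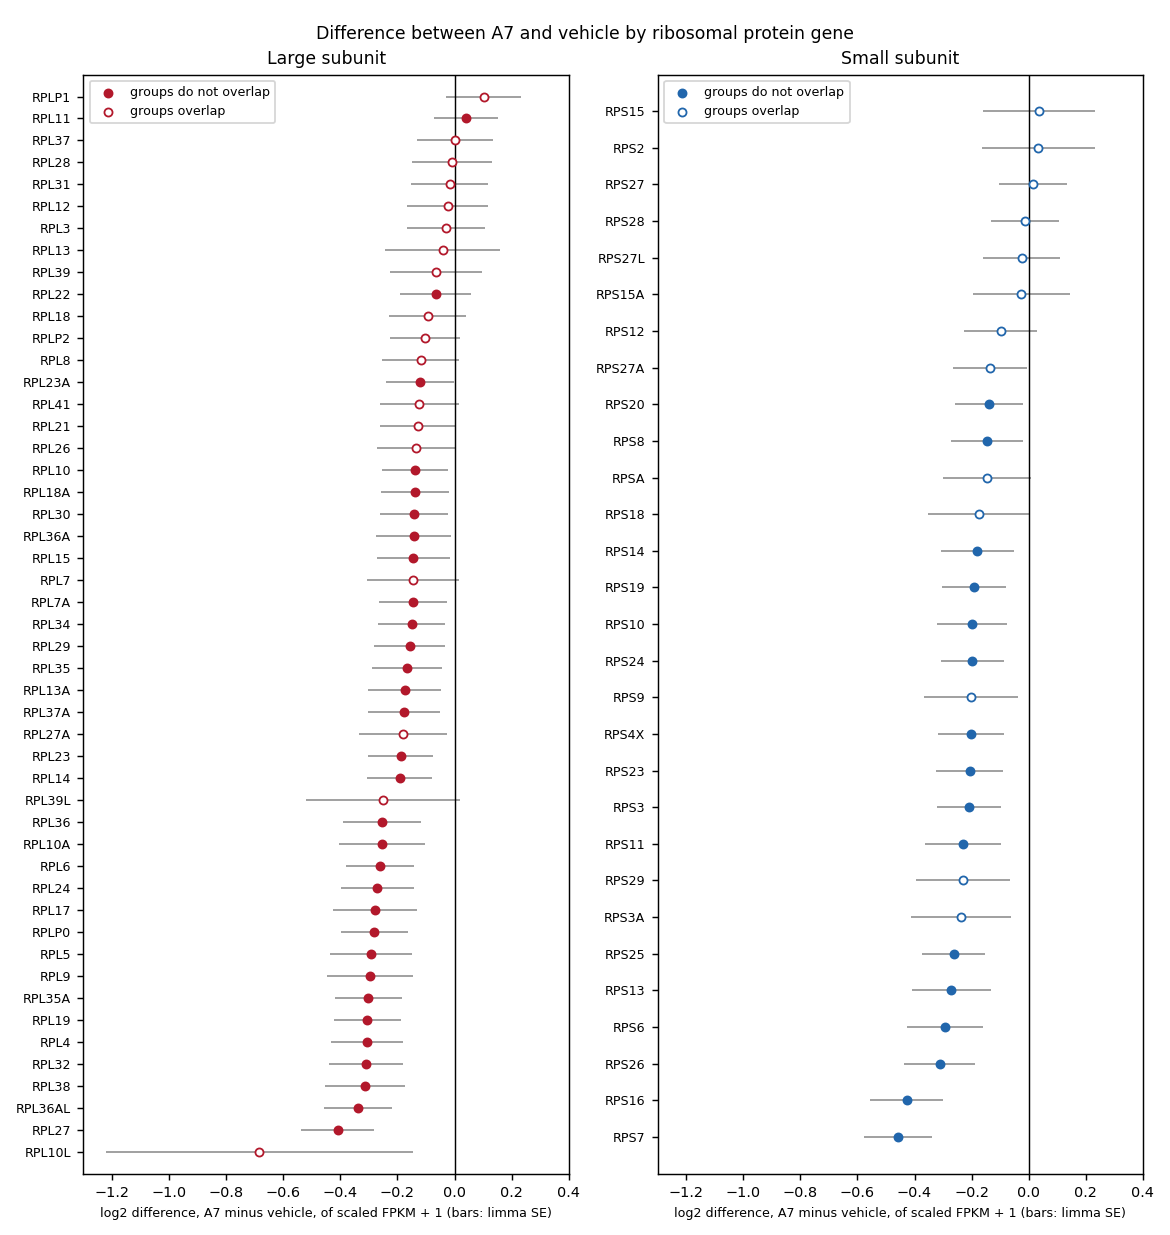
Log2 difference of scaled FPKM + 1, A7 minus vehicle, for the tested members reported by name, of the large (left) and small subunit (right), with bars of 1 limma standard error. Filled points mark genes whose 2 A7 and 2 vehicle libraries do not overlap. Most points lie between -0.5 and 0, and RPL10L at -0.68 has by far the widest bar.

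Within the small subunit RPS7 and RPS16 had the lowest unadjusted p-values. RPS7, which takes part in processing of the small-subunit RNA and can bind MDM2, stood at 2383 and 2590 with vehicle against 1884 and 1735 with A7. Both A7 libraries were thus below both vehicle libraries. Mean levels of 2487 ± 146 and 1809 ± 105 (SD, n = 2 each) gave a 1.38-fold difference, and the log2 difference was -0.46 (SE 0.12, 95% interval -0.75 to -0.16, limma adjusted p = 0.806). RPS16, a protein of the subunit's head whose C-terminal tail reaches the decoding region, stood at 2536 and 2884 with vehicle and at 2109 and 1918 with A7. Its groups did not overlap either (log2 difference -0.43, SE 0.13, limma adjusted p = 0.806). As TPM the log2 differences were smaller, at -0.234 for RPS7 and -0.203 for RPS16.

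The other small-subunit genes with well-known roles had smaller differences or overlapped. RPS6, the classical phosphorylation target of the S6 kinases, stood at 6454 and 7524 with vehicle and at 5950 and 5439 with A7 (log2 difference -0.29, SE 0.13). RPS26 stood at 3232 and 3624 and at 2856 and 2658, and RPS19, the gene most often mutated in Diamond-Blackfan anaemia, at 2438 and 2499 and at 2226 and 2101. In these genes both A7 libraries were lower than both vehicle libraries. The vehicle libraries themselves differed by 0.22 (log2) in RPS6 and by 0.16 in RPS26, against -0.29 and -0.31 between the groups. RPS3, at the entry of the messenger RNA channel, stood at 3345 and 3575 with vehicle and at 2965 and 3013 with A7. RPS27A, made as a fusion with ubiquitin, stood at 1497 and 1700 and at 1533 and 1375, with overlap. As TPM the differences of RPS19 (0.034), RPS3 (0.014) and RPS27A (0.089) were positive, and those of RPS6 (-0.0678) and RPS26 (-0.0877) were smaller.

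Among the most abundant small-subunit genes A7 replicate 2 was lower than the other libraries. RPS29 stood at 7696 and 8773 with vehicle and at 7981 and 6153 with A7. RPS3A stood at 6769 and 7725 and at 7124 and 5286, and RPS18 at 5658 and 6807 and at 6316 and 4783. In all 3, A7 replicate 1 lay between the vehicle libraries, and the difference between the A7 libraries (0.38, 0.43 and 0.40 lower in replicate 2 on the log2 scale) exceeded the difference between the groups (-0.23, -0.24 and -0.18). Without A7 replicate 2, RPS18 had a higher mean in A7 (0.030). RPS9, at 362 and 346 with vehicle and 353 and 268 with A7, showed the same library apart. RPS4X, X-linked and among the lowest of the subunit, stood at 359 and 377 and at 319 and 320, with close A7 replicates below both vehicle libraries.

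In the large subunit the lowest unadjusted p-values were those of RPL27, RPL36AL and RPL19. RPL27 stood at 4181 and 4478 with vehicle against 3496 and 3036 with A7. Mean levels of 4330 ± 210 and 3266 ± 325 (SD, n = 2 each) gave a 1.33-fold difference, and the log2 difference was -0.41 (SE 0.13, 95% interval -0.72 to -0.10, limma adjusted p = 0.806). RPL19, which forms a bridge to the small subunit, stood at 2294 and 2290 with vehicle and at 1947 and 1766 with A7 (log2 difference -0.31, SE 0.12). Its vehicle libraries nearly coincided, and both A7 libraries lay below them. RPL35A, mutated in some patients with Diamond-Blackfan anaemia, stood at 8151 and 8869 and at 7100 and 6695, also without overlap. As TPM the log2 differences were smaller, at -0.185 for RPL27, -0.0806 for RPL19 and -0.0775 for RPL35A. RPL21 stood at 7020 and 8223 with vehicle and at 7245 and 6679 with A7, with overlap.

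The stalk of the large subunit, which recruits translation factors, had 1 member without overlap and a pair with it. RPLP0, the base of the stalk, stood at 5449 and 6037 with vehicle and at 4772 and 4665 with A7. Its groups thus did not overlap (log2 difference -0.28, SE 0.12, and -0.0568 as TPM). RPLP2 stood at 1381 and 1303 and at 1320 and 1182, with overlap (-0.10, and 0.12 as TPM). RPLP1, the partner of RPLP2 in the stalk dimers, stood at 10011 and 9770 with vehicle and at 11552 and 9753 with A7. Its higher mean in A7 (log2 difference 0.10, SE 0.13, limma adjusted p = 0.898) came from A7 replicate 1, and without that library the difference was -0.018. The differences between the 3 genes were not tested.

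RPL5 and RPL11 enter the large subunit together in a particle with its small ribosomal RNA, and as free proteins both bind the ubiquitin ligase MDM2. RPL5 stood at 568 and 703 with vehicle and at 526 and 506 with A7 (log2 difference -0.29, SE 0.14). RPL11 stood at 645 and 654 with vehicle and at 680 and 655 with A7 (a log2 difference of 0.04 with SE 0.11, limma adjusted p = 0.961). RPL11 was the single member with both A7 libraries above both vehicle libraries, by a margin of under 2 scaled FPKM between the nearest libraries. MDM2 stood at 35.3 and 45.7 with vehicle and at 37.1 and 43.4 with A7, with overlap. CDKN1A, an inhibitor of the cell cycle, stood at 29.9 and 20.2 with vehicle and at 32.5 and 30.2 with A7. Neither of these genes was called (smallest limma adjusted p 0.806).

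The remaining members with a higher mean in A7 differed by less than their spread. RPS15 stood at 573 and 414 with vehicle and at 552 and 453 with A7, and RPS2, at the entry of the messenger RNA channel, at 993 and 751 and at 1017 and 768. In both genes replicate 2 was the lower library in each group, by 0.47 and 0.28 (log2) in RPS15 and by 0.40 and 0.40 in RPS2, against differences of 0.04 and 0.03 between the groups. RPS27 stood at 6775 and 6909 and at 7326 and 6531, and RPL37 at 262 and 286 and at 294 and 256. The sign of RPS27 and RPL37 turned without vehicle replicate 1 or A7 replicate 1, and that of RPS15 and RPS2 without vehicle replicate 2 or A7 replicate 1.

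The paralog pairs differed far more in level than between the treatments. RPL36AL, an intronless copy of RPL36A on another chromosome, stood at 8132 and 9095 with vehicle and at 6739 and 6871 with A7. Its groups did not overlap (means 8613 ± 681 and 6805 ± 93, n = 2 each, log2 difference -0.34, SE 0.12, limma adjusted p = 0.806). As TPM its log2 difference was -0.113. RPL36A itself stood at 517 and 535 with vehicle and at 517 and 439 with A7. Its lower vehicle and higher A7 library nearly coincided (log2 difference -0.14, SE 0.13). The read-through RPL36A-HNRNPH2, which shares sequence with RPL36A, stood at 102 and 132 and at 109 and 132, so the division of reads between them is uncertain. Both genes of the pair begin transcription within a run of C and T, as the stretches above show.

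RPS27 and RPS27L encode near-identical proteins. RPS27L stood at 227 and 255.5 with vehicle and at 222 and 252 with A7, with full overlap (log2 difference -0.02, SE 0.14, positive as TPM), while RPS27 lay between 6531 and 7326. RPS27L was the lowest tested small-subunit gene. RPL39 stood at 5092 and 5953 and at 5931 and 4678 (log2 difference -0.06, positive as TPM), and RPL39L, known from testis and some cancers, at 23.7 and 22.1 and at 25.4 and 14.3. A7 replicate 2 set RPL39L's lower mean (log2 difference -0.25, SE 0.27), which was higher without it (0.15). RPL10, which completes the large subunit late in its assembly, stood at 1648 and 1797 and at 1572 and 1554 (log2 difference -0.14, SE 0.12, positive as TPM). Its testis paralog RPL10L stood at 1.64 and 6.65 with vehicle and at 2.68 and 1.13 with A7, on roughly 4, 14, 11 and 4 fragments. RPL10L had the lowest log2 difference of all members (-0.68, SE 0.54), which turned to 0.089 without vehicle replicate 2. RPL3, at the peptidyl transferase centre, stood at 2499 and 2741 and at 2347 and 2802 (-0.03, positive as TPM). RPL27A, the lowest tested member that is no paralog of another member, stood at 36.1 and 32.5 and at 32.6 and 27.7, on roughly 48 to 90 fragments.

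Over all 4 libraries, genes of equal abundance outside the family had a median close to that of the members, but not with each library left out. The 109 tested non-members between the members' quartiles of level (699 to 3686 scaled FPKM) had a median log2 difference of -0.19, with quartiles of -0.26 and -0.13, against -0.17 for the members. Of these 109 genes 96 (88.1%) had a lower mean with A7, and in 56 (51.4%) both A7 libraries lay below both vehicle libraries. The members' median minus that of these genes was 0.014. It was 0.080 without vehicle replicate 1, -0.047 without vehicle replicate 2, -0.070 without A7 replicate 1 and 0.11 without A7 replicate 2. The median of these genes alone was -0.28 without vehicle replicate 1 and -0.097 without vehicle replicate 2, and without A7 replicate 2 it was -0.20 against -0.086 for the members. With a wider band, between the 10th and 90th percentile of the members, the median of 293 non-members was -0.17. The band's median, too, turned to 0.036 as TPM and to -0.0053 after quantile normalization. The difference moved with abundance among non-members, whose median was 0.052 at a mean of 1 to 10 (5664 genes), -0.050 at 10 to 100 (2539 genes), -0.15 at 100 to 1000 (508 genes) and -0.19 at 1000 or more (118 genes). The members at 100 to 1000 (27 genes) and at 1000 or more (47 genes) had medians of -0.17 and -0.18.

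**Figure D3:**
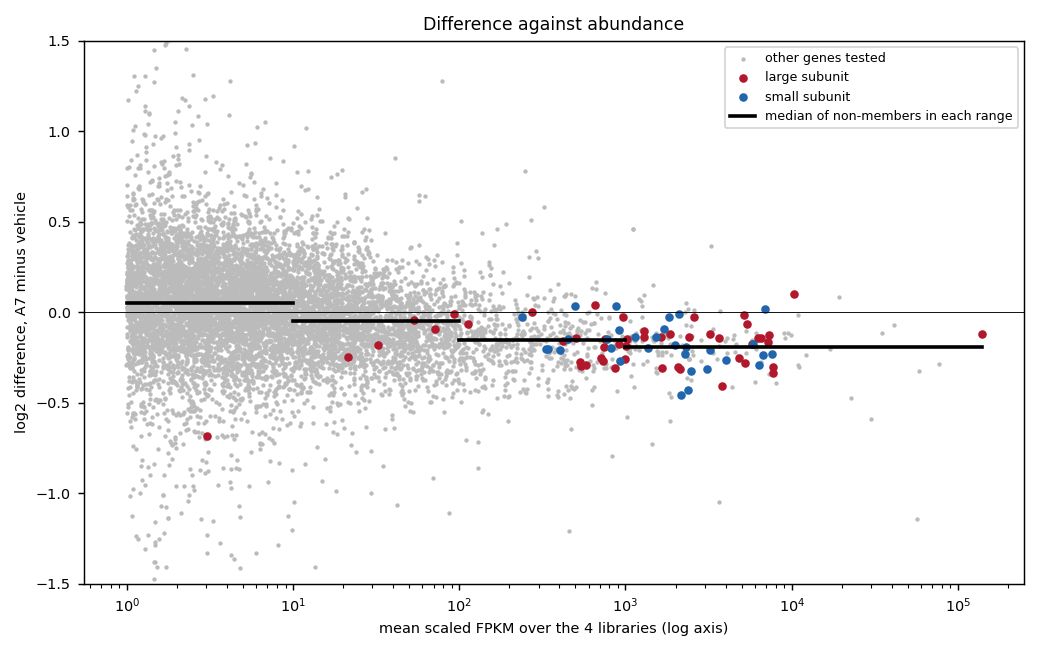
Log2 difference, A7 minus vehicle, against the mean scaled FPKM of the 4 libraries (log axis) for all 8952 tested genes. Grey points are other genes, red and blue points the large and small subunit, and black lines the median of non-members in 4 ranges of abundance, and 74 genes lie beyond the axis of ±1.5. The members scatter around the black lines, which fall from 0.052 to -0.19.

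The libraries did not contribute equally to the members' differences. Around each gene's mean of the 4 libraries the median member lay at 0.064 and 0.12 (log2) in vehicle and at 0.0042 and -0.16 in A7. The order was the same in the large subunit (0.064, 0.13, 0.0092 and -0.16) and in the small subunit (0.061, 0.12, -0.0092 and -0.17). In A7 replicate 2, 3 of 80 members lay above their own mean, against 41 in A7 replicate 1, 60 in vehicle replicate 1 and 70 in vehicle replicate 2. Genes of equal abundance lay at -0.0049 and 0.19 in vehicle and at -0.095 and -0.078 in A7. Relative to those genes the members were higher in replicate 1 of both groups (0.069 and 0.099) and lower in replicate 2 of both (-0.069 and -0.078). A7 replicate 2 was below A7 replicate 1 in 68 members, with a median difference of -0.16, close to the -0.17 between the groups. For the 4 pairs of libraries across groups the members' medians were -0.064 and -0.22 against vehicle replicate 1 and -0.14 and -0.27 against vehicle replicate 2, with A7 replicate 1 named first. Without A7 replicate 2 the median was -0.088 in the large and -0.063 in the small subunit, less than it was over all 4 libraries. The part of this library's other properties in the result was not tested.

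**Figure D4:**
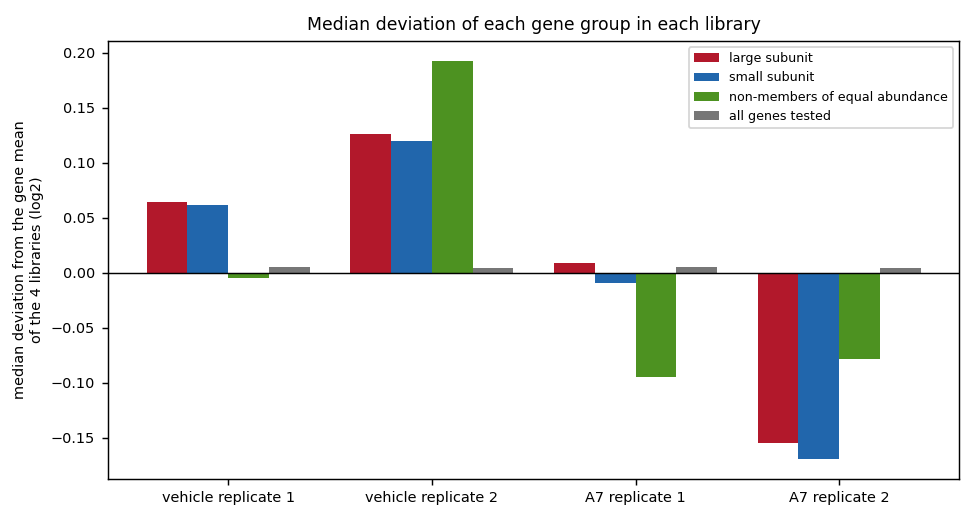
Median deviation (log2) from each gene's mean of the 4 libraries, for the large subunit (red), the small subunit (blue), non-members of equal abundance (green) and all genes tested (grey). The red and blue bars are lowest in A7 replicate 2 (-0.16 and -0.17), whereas the green bars stand out in vehicle replicate 2 (0.19).

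As a share of all summed FPKM the members were not lower with A7. Vehicle libraries gave them 25.4% and 25.1%, and A7 libraries 27.9% and 25.2%. The large subunit took 19.6% and 19.5% with vehicle and 21.7% and 19.7% with A7 (means 19.6% ± 0.12 and 20.7% ± 1.4, SD, n = 2 each, exact two-sided permutation p = 0.333, the smallest possible). RPL41 alone took 10.4% in both vehicle libraries and 11.9% and 10.5% with A7. The small subunit took 5.72% and 5.63% with vehicle and 6.13% and 5.45% with A7 (exact two-sided permutation p = 1). The higher share stood in A7 replicate 1. In A7 replicate 2 the shares of all members and of the large subunit lay within or near the vehicle values. The small subunit's share in that library was below both vehicle libraries. The summed FPKM that forms the denominator was lower in both A7 libraries than in both vehicle libraries. With the 20 most abundant other genes left out of the sum, the small subunit's share was lower in A7, by 0.247 percentage points, in place of 0.114 higher. The large subunit's difference of 1.18 points became 0.346 by the same change, 0.395 with RPL41 left out of the subunit and 0.184 without A7 replicate 1.

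Base composition moved with the differences between replicates, among the members more in the vehicle than in the A7 pair. GC content was taken from transcripts of GENCODE 29. Over the 80 members it had a Pearson r of -0.35 (Spearman rho -0.48) with the difference of vehicle replicate 2 minus 1. Non-members of equal abundance gave an r of -0.37 (89 genes) and all genes tested -0.15 (8217 genes). With the difference of A7 replicate 2 minus 1, r was -0.13 over the members and -0.10 over non-members of equal abundance. Over all genes tested it was -0.16, near the value for vehicle. In the small subunit r was -0.60 for the vehicle and -0.45 for the A7 replicates (n = 31 genes), and in the large subunit -0.25 and 0.00 (n = 49 genes). For A7 minus vehicle, r was 0.16 over the members. The 40 members of lower GC content (40.1% to 51.3%) had a median difference between groups of -0.18 and the 40 of higher GC content (51.5% to 63.6%) of -0.16. These are descriptions across genes of the same 4 libraries, and their part in the group difference was not tested.

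A near-identical copy (95% identity or more along 50% or more of its length) was found in GENCODE 29 for 46 of the 83 members, up to 31 copies for 1 gene, so their values depend on how the authors assigned reads shared between copies. The 22 large-subunit genes without such a copy had a median of -0.14 and the 12 small-subunit genes of -0.22. The genes with a copy had medians of -0.17 and -0.18. The search used 1 transcript per gene and can miss shorter copies. RPS26 counted as without a copy, although its pseudogene RPS26P11 is listed. The split therefore cannot show whether shared reads affect the medians. Of 28 ribosomal protein pseudogenes listed, 17 reached a mean of 1, and 13 of these had lower means (median -0.15). RPS26P11 stood at 1215 and 1348 with vehicle and at 1015 and 911 with A7, close to its parent RPS26 in proportion. RPLP0P2 stood at 128 and 148 and at 114 and 103, and RPL19P12 at 179 and 191 and at 153 and 163. None was called. The 45 tested members with a TOP tract at a listed start had a median of -0.17 and the 19 without of -0.28, and the non-members of equal abundance had medians of -0.22 (11 genes) and -0.19 (62 genes). Over all other tested genes, most of them less abundant, the medians were -0.0031 (469 genes) and -3.26e-05 (5932 genes). The difference between members with and without the tract was not tested.

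Other genes of ribosome production were looked at beside the members. Ribosomal proteins outside the symbol rule had lower means in all 5 cases, without overlap of the groups, and none was called. Of non-members at a mean of 100 to 1000, where most of the 5 stood, 43.7% lay lower without overlap. The share was 18.6% of all genes. RPL22L1, a paralog of RPL22, stood at 41.4 and 48.6 with vehicle and at 33.9 and 36.6 with A7 (log2 difference -0.34, SE 0.15). FAU, which encodes a ubiquitin-like fusion with a small-subunit protein, stood at 344 and 378 and at 328 and 284, and RPL26L1 at 795 and 930 and at 753 and 758. Ribosome biogenesis factors had a median log2 difference of -0.28 over the 28 of 30 that were tested. Of these, 25 had a lower mean, 20 lay lower without overlap and 1 higher without overlap, with 0 called at a limma adjusted p under 0.05 and 5 lower and 1 higher at an unadjusted p under 0.05. The shares without overlap were 71.4% lower and 3.57% higher, against 18.6% and 18.3% of all genes, and against 23.7% and 13.2% of non-members at a mean of 10 to 100. EBNA1BP2, needed for processing of the large-subunit RNA, stood at 50.5 and 43.8 with vehicle and at 33.5 and 29.4 with A7 (a log2 difference of -0.57 with SE 0.15, limma adjusted p = 0.806). EIF6, which keeps the new large subunit from joining too early, stood at 517 and 559 and at 396 and 429. DKC1, the pseudouridine synthase of ribosomal RNA, stood at 53.5 and 53.04 and at 35.8 and 42.1. In these 3 genes both A7 libraries were clearly below both vehicle libraries, and A7 replicate 2 was not the lower A7 library in EIF6 or DKC1. NOP56 and NOP16, nucleolar assembly factors named here after their values were seen, were the others with lower values at that p. GAR1, a protein of the pseudouridine-guiding particles and likewise named afterwards, was the 1 with higher values, at 19.2 and 20.6 with vehicle and 25.2 and 27.6 with A7.

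RNA polymerase I, which transcribes the ribosomal RNA genes, had 12 of 14 listed subunits and factors tested, with 10 lower means, 4 lower (33.3%) and 1 higher (8.33%) without overlap, 0 called and a median of -0.15. All genes gave 18.6% and 18.3% without overlap. The 1 higher gene, TWISTNB, named after its values were seen, stood at 6.11 and 5.70 with vehicle and at 6.32 and 6.63 with A7. POLR1C, a subunit shared with RNA polymerase III, stood at 151 and 179 with vehicle and at 98.4 and 129 with A7 (log2 difference -0.54, SE 0.18). TAF1D stood at 10.8 and 10.6 and at 8.66 and 7.36, and ZNRD1 at 60.7 and 62.9 and at 53.2 and 43.7. Other messenger RNAs known to carry a TOP tract, mostly translation factors, had a median of -0.035 over 17 genes, of which 12 had lower means, 7 lay lower and 3 higher without overlap, and 0 were called. EEF1B2, a nucleotide exchange factor of elongation, stood at 671 and 730 with vehicle and at 623 and 524 with A7. EIF3E stood at 311 and 394 and at 263 and 297, and NPM1, the nucleolar chaperone that is also on the biogenesis list, at 5638 and 7975 and at 4774 and 5525. The differences between these lists and the members were not tested.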

How the data were processed

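RNA was sequenced from 4 LCC9 samples. Per the labels' protocols, SMARTer PCR cDNA from total RNA was sheared and ligated to adapters, with no strand-marking step named, so reads of a gene and an overlapping antisense gene are not separable. The authors deposited 1 table per library of gene symbols with FPKM, per the file headers. Per the submitters' processing notes, the tools and build were CASAVA 1.8.2, TopHat, Cufflinks 2.2.1 and GRCh37. Not given in the sources used here: the annotation, how multiply mapping reads were treated, and any scaling of libraries.

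Of 23619 lines, 14 had a number for a symbol (at most 0.00539% of a library's sum) and were left out. Scaling used the median, per library, of its ratios to the geometric mean over libraries, taken from genes above 0 throughout with a mean FPKM of at least 1. On log2(scaled FPKM + 1), limma 3.58.1 (R 4.3.3) compared the groups in the 8952 genes with that mean, two-sided, using a mean-variance trend, Benjamini-Hochberg adjusted p-values and a threshold of 0.05, on 2 residual and 3.89 prior degrees of freedom. Folds of low genes are understated. Depth was read from the steps of values below 0.5 FPKM. Fragment numbers use GENCODE 29 lengths and are rough, and where given they cover counting only. Length and GC content are those of the coding transcript of median length per gene.

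Copies were searched with blastn 2.17.0. Of a pair of small-subunit lines with equal values 1 was left out of counts. Some genes are not reported here by name, and counts and medians include them. The members and lists were chosen with earlier results of these data known. Named genes are, per subunit, the 5 most abundant members, the 3 lowest tested, the 3 with the smallest p in each direction, all paralogs, and up to 3 per other list; others were named for their known roles after their values were seen.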

Additional observations from a re-analysis of the deposited data

How the results depend on the processing

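No member was called under any of the 14 alternatives fitted over all genes. With FPKM rescaled to TPM the medians turned to 0.074 (large subunit), 0.027 (small subunit) and 0.036 (non-members of equal abundance), and 27 members had a lower mean. After quantile normalization they were 0.017, 0.0092 and -0.0053, with 36 lower members and 0.0078 between the subunits. Leaving out 1 library gave -0.24 to -0.063 for the small subunit, -0.025 to 0.020 between the subunits and 0 to 13 called genes among all, the highest without A7 replicate 2 and the lowest without A7 replicate 1. Calls among all genes numbered 1 with a pseudocount of 0.1 or 0.01 or no variance trend, 0 with no filter (16276 symbols above 0 in some library), 4 with a minimum mean of 10 and 0 with the replicate number as a block. The difference in the small subunit's share, A7 minus vehicle, was -0.247 percentage points without the 20 most abundant other genes. The replicate numbers pair no samples in the labels, and the correlation of same-numbered deviations was 0.0906 over all genes. The block left 0 members called. It could not move a median, since each replicate number occurs once in each group.

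Of the 80 members 27 stayed lower as TPM, so most signs turned. Among the genes named by rule these were RPL41 (0.102), RPL21 (0.0976), RPL27A (0.0361), RPS18 (0.0497), RPS27L (0.199), RPS9 (0.0226), RPS4X (0.0224), RPL3 (0.195), RPL10 (0.0859), RPL36A (0.0811), RPL39 (0.161), RPL26L1 (0.0383) and MDM2 (0.216). After quantile normalization these were RPL21 (0.0900), RPS18 (0.0092), RPS27L (0.113), RPL3 (0.0948), RPL10 (0.103), RPL36A (0.0696), RPL39 (0.160) and MDM2 (0.0999). RPL37 turned with FPKM as deposited (-0.00285) and with factors from less abundant genes (-0.00481). Leaving out 1 library moved RPLP1 from -0.0185 to 0.229, RPL10L from -1.46 to 0.0889, RPL39L from -0.643 to 0.150, RPL37 from -0.0945 to 0.105, RPS27 from -0.0657 to 0.103, RPS18 from -0.374 to 0.0303, RPS27L from -0.112 to 0.0684, RPS9 from -0.400 to 0.00301, RPS15 from -0.192 to 0.267, RPS2 from -0.167 to 0.242, RPL3 from -0.152 to 0.1, RPL39 from -0.234 to 0.112 and MDM2 from -0.185 to 0.184. The cause of these turns was not tested. With 2 libraries a group the 95% interval of a typical member (SE 0.13) is wider than its difference. Depth limits RPL10L, with at most 14 estimated fragments a library. The share without RPL41 was added after the data were seen.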
